A study of Mus musculus with 2208 samples.

Results

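Cells that carried the MHC class II genes were compared with cells that carried none of them, within each of 4 CKp25 mice 6 weeks after induction. A cell counted as Cd74-positive with Cd74 at FPKM of 10 or more and at least 1 of H2-Aa, H2-Ab1 and H2-Eb1 at FPKM of 1 or more, and as Cd74-negative with all 4 genes under FPKM of 1. FPKM scales the fragments of a gene by transcript length and by the mapped fragments of the well. Of 288 wells of these mice, 227 cells entered. A well had to show 1000 genes or more (FPKM no lower than 1), and the first well of each mouse was not used. The 227 cells comprised 134 positive, 43 negative and 50 intermediate cells that fitted neither definition. Mice 1 to 4 gave 23, 26, 29 and 56 positive cells and 10, 14, 11 and 8 negative cells. The whole series held 2208 wells, of which 2003 met the same conditions. The 4 genes chose the cells, so their values describe the classes and support nothing else.

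CKp25 mice can be induced to make p25, a fragment of p35 that overactivates Cdk5. It is made in forebrain neurons and not in microglia, and neurons are lost after induction. The 6-week CKp25 mice were 4 months and 2 weeks old, and the 2-week CKp25 mice used as a second set of animals were 3 months and 2 weeks old. CK control littermates had the same age as CKp25 mice at each time. In all groups single hippocampal cells with CD11b and CD45 on their surface were sorted into plates and made into Smart-seq2 libraries, and FPKM keep no read counts, so the depth behind each cell's values is unknown. The classes of a mouse come from 1 animal, and the mouse is the replicate.

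MHC class II molecules present peptides from engulfed material to CD4 T cells. H2-Aa, H2-Ab1 and H2-Eb1 encode chains of these molecules, and Cd74 encodes the invariant chain, which fills the peptide groove until the molecule reaches the endosome, where H2-DM helps to exchange the rest of that chain for a peptide. Resting microglia carry little class II, and microglia near damaged or dying neurons can carry it. The genes are switched on together by Ciita, a coactivator that works through a set of promoter boxes, one of which is the Y box bound by NF-Y.

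The share of Cd74-positive cells separated the 6-week CKp25 mice from every other mouse of the series. In mice 1 to 4 it was 57.5%, 46.4%, 56.9% and 70% of the cells, with a mean of 57.7% ± 9.64 (SD, n = 4). CK mice of the same week held 11.6%, 2.17% and 7.78%. CKp25 mice held 23.7%, 7.37% and 37.3% at 2 weeks, and 1.09% to 4.6% at 1 week. At 0 weeks the 3 CKp25 mice held 1.12% to 1.20%. The lowest of the 6-week CKp25 mice lay above the highest of the other mice, at 37.3%. These shares are a description, since the classes were chosen with them in view.

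**Figure D1:**
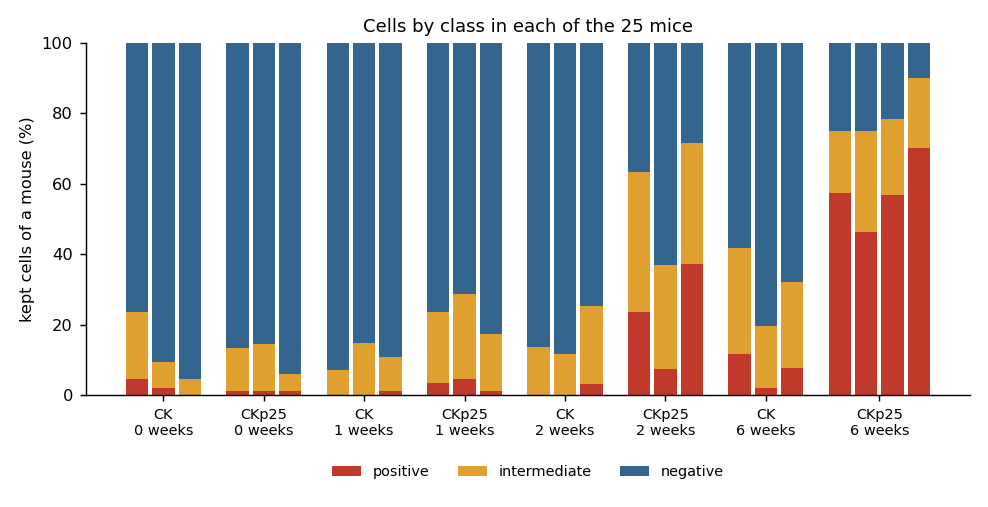
Share of kept cells (y axis, percent) that were positive, intermediate or negative for the class II genes in each of the 25 mice (x axis, 1 bar per mouse, grouped by genotype and week). Positive cells made up 46.4% to 70% of the cells of the 4 CKp25 mice at 6 weeks and at most 11.6% of the cells of a CK mouse.

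No cell lay close to the border in Cd74. The lowest positive cell had a Cd74 level of 14.4 FPKM and the next 22.2, while 0 cells had a value above 0 and under 10. All 43 negative cells had the 4 genes listed at 0. Of the 50 intermediate cells, 36 had Cd74 without any of the 3 H2 genes, with a median of 163 FPKM, and 14 had an H2 gene with Cd74 listed at 0. The median of the positive cells was 676 FPKM, and by mouse it was 994, 656, 225 and 896 FPKM. Mouse 3 was the lowest. H2-Ab1 was found in 89.6% of positive cells, H2-Aa in 70.9% and H2-Eb1 in 64.9%.

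Positive cells with more of the H2 genes also had more Cd74. The 34 cells with 1 H2 gene had a median of 130 FPKM, the 32 cells with 2 had 308 FPKM and the 68 cells with all 3 had 1205 FPKM. Spp1, the secreted matrix protein osteopontin, was found in 11.8%, 28.1% and 50% of these cells. Cst7, which encodes the cysteine protease inhibitor cystatin F, was found in 61.8%, 78.1% and 86.8%. The median number of genes per cell was 2271.5, 2296.5 and 2549, so the last group also had the most genes per cell. These are shares of cells pooled over the 4 mice, without a test.

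Both classes had the markers of microglia. All 43 negative and 134 positive cells had at least 3 of 8 microglial markers. Cx3cr1, the fractalkine receptor, was found in 100% of either class. Tmem119 was found in 90.7% of negative and 97.0% of positive cells. The summed level of the 8 markers was 53.78 to 66.47 over the mice in negative cells and 59.36 to 64.73 in positive cells, as a sum of mean log2(FPKM + 1).

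Defining markers of other immune cells were rare in both classes, while some broader genes of the lists were common. The counts of markers found in any cell compare 43 with 134 cells, so more can be found in the larger class. Of 10 markers of border-associated macrophages, the class II-rich macrophages of the meninges and vessels, 7 were found in at least 1 negative and 9 in at least 1 positive cell. Their summed level was 1.47 to 8.14 in negative and 3.26 to 4.33 in positive cells, and Cd209f was at 0 in both. At least 3 of these markers were found in 1 of 43 negative and 7 of 134 positive cells, or 2.33% and 5.22%. At least 2 were found in 4.65% and 11.2%. Mrc1, the mannose receptor, was found in 2.33% and 5.22% of cells, and Lyve1 in 0% and 0.746%. Pf4 was found in 4.65% and 3.73%, and Cbr2 in the same shares. Stab1, which the list also holds, was found in 32.6% and 43.3%.

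Of 8 monocyte markers 3 were found in any negative and 6 in any positive cell, with summed levels of 0 to 2.59 and 0.82 to 3.26. Ccr2 was found in 4.65% and 6.72% of cells, Ly6c2 in 0% and 2.99%, and Plac8 in 4.65% and 2.99%. For 10 dendritic cell markers the summed levels were 0 to 2.31 and 1.00 to 2.18, with Flt3 at 0 in negative and in 2.24% of positive cells. Others of that list were found in a larger share of negative cells, Xcr1 in 9.30% and 5.22%, Siglecg in 4.65% and 0.746%, and Itgae in 4.65% and 2.24%. Of 6 B cell markers, 1 was found in negative and 4 in positive cells, with levels up to 0.90 and 0.85, and Cd79a was at 0 in both classes. Of 7 T or NK cell markers 1 and 3 were found, with Cd3e at 0 in both and Cd3d in 14.0% and 5.97%. The neutrophil genes S100a8 and S100a9 were at 0 in both. The neutrophil list's 2 genes that were found, Csf3r and Cxcr2, occurred in 88.4% and 34.9% of negative and 91.8% and 49.3% of positive cells. Mbp, a myelin gene, was found in 9.30% and 18.7%, and Cnp, of the same list, in 34.9% and 36.6%. Gfap, an astrocyte gene, was found in 4.65% and 4.48%, and Slc1a3, of the astrocyte list, in 48.8% and 59.7%. The results were recomputed without cells with 2 or more markers of another immune cell, as given with the count of genes.

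Positive cells had more genes per cell. The median number of genes at FPKM of 1 or more was 2304 in positive and 1458 in negative cells of mouse 1, and 2520.5 and 2236.5 in mouse 2. It was 2170 and 1423 in mouse 3, and 2480 and 2432 in mouse 4. Positive cells were higher in 4 of 4 mice, by 481 ± 379 genes on average (SD, n = 4 mice; exact sign-flip permutation, 2-sided, p = 0.125, the smallest that 4 mice allow). The gap was wide in mice 1 and 3 and narrow in mouse 4. Summed FPKM per cell was also higher in positive cells in 4 of 4 mice, with a mean of the medians of 459207 against 365875. The highest gene of a cell took 10.3% of that sum in positive and 14.3% in negative cells, and was higher in positive cells in 0 of 4 mice. Both had p = 0.125 in the same exact sign-flip permutation. The ribosomal RNA gene Rn45s took a median of 0.237% of summed FPKM in negative cells of mouse 1 and 4.60% to 11.8% in those of the other mice, so mouse 1 stood apart in both classes.

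**Figure D2:**
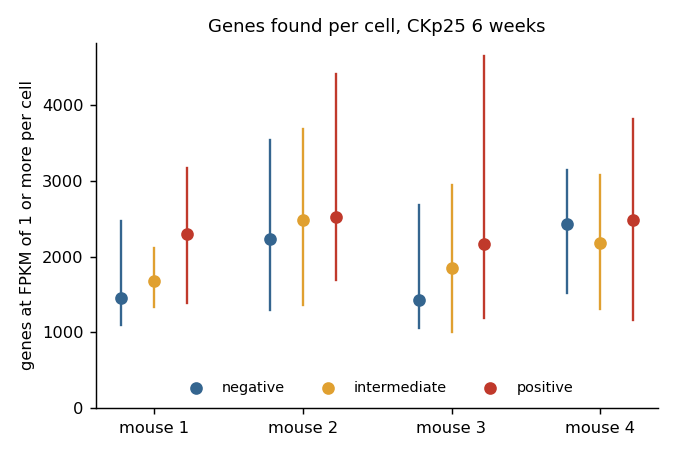
Number of genes at FPKM of 1 or more per cell (y axis) in the negative, intermediate and positive cells of the 4 CKp25 mice at 6 weeks (x axis), with the median as a point and the lowest to highest cell as a line. The medians of positive and negative cells were 2304 and 1458 in mouse 1 and 2480 and 2432 in mouse 4.

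Of 6294 tested genes, 36 were higher in Cd74-positive cells and 0 were lower at an adjusted p under 0.05 (limma on the mean log2(FPKM + 1) of each class in each mouse, paired by mouse). These were 0.572% and 0.0% of the genes tested. At an unadjusted p under 0.05, 982 genes were higher and 17 lower. Of the 36 genes, 35 were higher in all 4 mice, against 20.7% of all tested genes. The paired test chose the 36 by these same 4 differences, so their shared sign is a description and no further support. The exception was Rpl36a, which was lower by 0.37 in mouse 4. The median difference over all tested genes was 0.28, and 76.0% of them lay above 0. A gene entered when found in 10% of the cells of both classes together in 3 mice. Since most of those cells were positive, a gene found in positive cells alone could enter more easily than the reverse, and the balance of calls cannot be read apart from that filter. Without the filter 0 genes passed in either direction among 14783.

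The count changed with the mice and with genes per cell. Without mouse 1 it was 2 and without mouse 3 it was 4, while it was 82 without mouse 2 and 96 without mouse 4. With genes per cell as a term in the fit, or with cells matched on genes per cell, the genes past the threshold were 2, Cst7 and Apoe. Matching uses fewer cells. Some genes that no longer passed had a similar difference with the term, such as 1.82 against 1.55 for Pqbp1 and 1.86 against 1.99 for Fbxw4. Matching left a gap in mouse 1, with 1915.5 genes in positive and 1458 in negative cells. Leaving out every cell with 2 or more markers of another immune cell left 1 gene, Cst7. That step also dropped cells for Csf3r, Cxcr2 and Stab1 and left 2 negative cells in mouse 4, and 19 genes passed when the neutrophil list and Stab1 were not used in it.

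Cst7 stood first. Cystatin F reaches endosomes and lysosomes, and the gene is known for its high level in microglia around amyloid plaques and dying cells. In positive cells of mice 1 to 4 its mean log2(FPKM + 1) was 8.31, 8.38, 5.19 and 7.12. In negative cells it was 1.98, 2.39, 0.96 and 4.99. All 4 positive values lay above all 4 negative ones, with mouse 4 closest together. The difference was 4.67 ± 0.66 (limma, adjusted p = 0.000349). The gene was found in 87.0%, 88.5%, 62.1% and 78.6% of positive and in 20%, 28.6%, 18.2% and 62.5% of negative cells. Leaving out 1 mouse at a time gave 4.11 to 5.52, with an adjusted p of at most 0.00262 in limma.

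Apoe encodes apolipoprotein E, which carries lipids between cells. Its level in positive cells was 10.73, 14.19, 13.56 and 13.31 in mice 1 to 4, and in negative cells it was 6.80, 11.89, 10.58 and 12.41. The classes overlapped across mice because mouse 1 was low in both, and positive cells were higher within every mouse. The difference was 2.53 ± 0.50 (limma, adjusted p = 0.0217). Apoe was found in every positive cell and in all negative cells but those of mouse 1, where 80% had it, so the difference was mostly one of level. The adjusted p in limma was 0.103 without mouse 1 and 0.0545 without mouse 3.

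Cd52 encodes a small anchored surface glycoprotein of leukocytes. Its level was 7.07, 6.57, 5.18 and 6.90 in positive cells and 2.73, 5.03, 1.25 and 4.38 in negative cells of mice 1 to 4. Every positive value lay above every negative one. The difference was 3.08 ± 0.62 (limma, adjusted p = 0.0217; 0.0840 without mouse 1 and 0.0917 without mouse 3). The gene was found in 62.1% to 82.1% of positive and 18.2% to 62.5% of negative cells.

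Ccl6 encodes a chemokine of myeloid cells. It had a level of 5.14, 5.07, 4.21 and 4.86 in positive cells and 1.42, 2.1, 0 and 2.99 in negative cells. The classes did not overlap, and in mouse 3 all negative cells were listed at 0. The difference was 3.19 ± 0.59 (limma, adjusted p = 0.0125, and 0.0915 without mouse 3). Spp1 had a level of 2.41, 4.05, 2.83 and 2.58 in positive and 0, 1.21, 1.16 and 1.43 in negative cells. The classes did not overlap. Its difference of 2.02 ± 0.49 lay just past the threshold (limma, adjusted p = 0.0485). The call was lost without mouse 1, 2 or 3, at an adjusted p of 0.112 to 0.148.

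**Figure D3:**
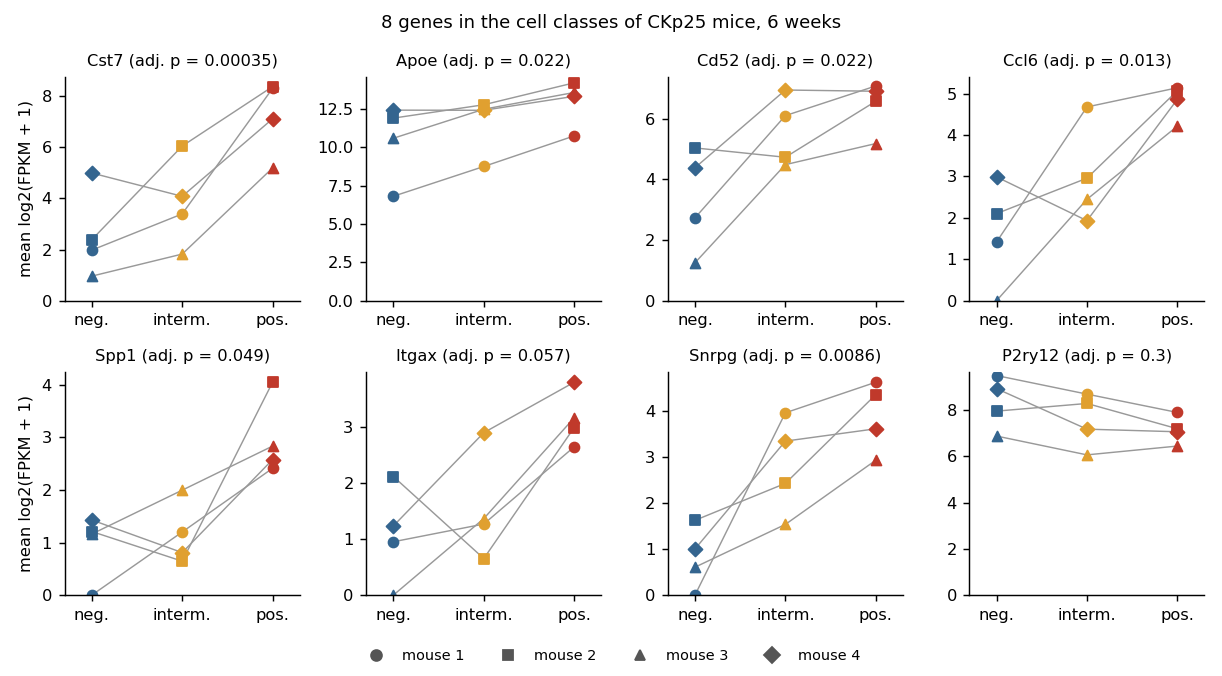
Mean log2(FPKM + 1) (y axis) of 8 genes in the negative, intermediate and positive cells (x axis) of the 4 CKp25 mice at 6 weeks, with 1 symbol per mouse joined by a line and the adjusted p of positive against negative cells from limma above each panel. All positive values of Cst7, Cd52 and Ccl6 lay above all negative ones, while P2ry12 was lower in the positive cells of each mouse without passing the test.

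These 5 genes were the members past the threshold of a list of 28 genes of phagocytic and lipid-handling activation, of which 25 were tested, while 0.572% of all tested genes passed. The list's median difference was 1.46, beside 0.28 over all tested genes, and 0.83 beside 0.02 with genes per cell as a term. In mice 1 to 4 it was 1.74, 1.05, 2.26 and 0.61, beside 0.46, 0.25, 0.42 and 0.10 over all tested genes. The list was chosen with earlier results of these data known, so its counts and medians are a description. Its 25 tested members all lay above 0, as 76.0% of all tested genes did. Further members had the values that follow without passing the test. Itgax, the integrin CD11c, differed by 2.07 ± 0.52 (limma, adjusted p = 0.0570), and its level was 2.64, 2.98, 3.16 and 3.79 in positive and 0.95, 2.11, 0 and 1.23 in negative cells. Those values did not overlap. Lyz2, a lysozyme, differed by 2.05 ± 0.54 (limma, adjusted p = 0.0669). The difference was 2.22 ± 0.64 for Clec7a, the beta-glucan receptor dectin-1 (limma, adjusted p = 0.0876), and 1.90 ± 0.61 for Axl, a receptor for apoptotic cells (limma, adjusted p = 0.117). The difference of Clec7a was 0.13 in mouse 2 and 3.39 in mouse 4.

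Genes of the ribosome made up the largest block among the 36. By their names 11 encoded ribosomal proteins, of 81 such genes tested, while 0.572% of all tested genes passed. All 81 lay above 0, beside 76.0% of all genes, with a median of 1.50. In a list of 27 of them 4 passed, Rpl18 and Rpl37a among them. The list's median was 1.51 beside 0.28 over all tested genes, and 1.03 beside 0.02 with genes per cell as a term. By mouse it was 2.69, 0.75, 2.42 and -0.02, near 0 in mouse 4. Mice 1 and 3 also had a wide gap in genes per cell, and the part of that gap in these values was not tested. The medians of the phagocytic list and of all tested genes were also higher in mice 1 and 3 than in mice 2 and 4. In the fit with genes per cell as a term, 0 of the 11 genes passed, as 2 of all genes did. Many of these genes have near-identical processed pseudogenes, and their values are uncertain for that reason.

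Rpl35a, a protein of the large subunit, had the largest difference among them. Its level was 9.16, 8.78, 7.85 and 9.25 in positive cells and 2.60, 6.49, 4.86 and 7.81 in negative cells. All positive values lay above all negative ones, although positive cells of mouse 3 and negative cells of mouse 4 were nearly equal, and the negative values ranged widely. The difference was 3.32 ± 0.66 (limma, adjusted p = 0.0217). Rps26, of the small subunit, was higher by 5.41 in mouse 1 and by 1.49 to 1.94 in the others, with a mean of 2.62 ± 0.64 (limma, adjusted p = 0.0476). Rpl27, Rpl39 and Rpl35 were higher by 3.08, 2.81 and 2.73. Eef1g, a subunit of translation elongation factor 1, was higher by 3.11 ± 0.63 (limma, adjusted p = 0.0217).

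Other genes past the threshold had varied roles. Snrpg, a core protein of spliceosomal particles, had a level of 4.62, 4.35, 2.93 and 3.61 in positive and 0, 1.62, 0.61 and 1.00 in negative cells. The classes did not overlap, and the difference was 3.07 ± 0.54 (limma, adjusted p = 0.00856). Ch25h makes 25-hydroxycholesterol, an oxysterol that immune cells release. It was listed at 0 in every negative cell of the 4 mice and found in 21.7%, 19.2%, 13.8% and 17.9% of positive cells. It entered the test through the positive cells alone, so its direction was fixed by the filter and no p is given. Vamp8, an endosomal SNARE protein, was higher by 2.65 ± 0.62 (limma, adjusted p = 0.0432). Pgk1, a glycolytic kinase, was higher by 2.46 ± 0.56 (limma, adjusted p = 0.0362). It was the member past the threshold of a glycolysis list of 12 tested genes, while 0.572% of all tested genes passed. The list's median was 1.26, and 0.80 with genes per cell as a term. Ldha, which makes lactate, differed by 2.41 ± 0.60 (limma, adjusted p = 0.0570).

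Further genes past the threshold differed by 0.79 to 2.54. They were Mrpl24 and Hsd17b10, of mitochondria, Naprt1, of NAD synthesis, the reductase Akr1a1, the cell death factor Bad, and Hpcal1, Dpm3, Sh3bgrl, Sugp1, Pqbp1, Fbxw4, Tbl1x, Dnajb14, Atxn10 and Commd3. Akr1a1 differed by 1.13 in mouse 2 and by 2.88 to 3.16 in the other mice. Mrpl24, Hsd17b10, Naprt1, Bad, Hpcal1, Dpm3, Sh3bgrl, Sugp1, Pqbp1, Tbl1x and Dnajb14 were too sparse for a filter at 25% of cells. Such genes can enter mainly through positive cells, and their shares by class are not given here, so their direction is less certain.

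Of the class II pathway, leaving aside the 4 genes that chose the cells, 14 genes were listed and 8 tested. None passed, and with 0.572% of all genes called a count of 0 in 8 says little about the list. There were 6 above 0, and the median was 0.79, or 0.08 with genes per cell as a term. H2-DMb1, a chain of the peptide-exchanging H2-DM, had a level of 3.69, 3.45, 2.42 and 3.40 in positive cells and 1.45, 2.89, 1.02 and 1.22 in negative cells. Positive cells were higher within each mouse, while the values of mouse 3 in positive and mouse 2 in negative cells overlapped. The difference was 1.60 ± 0.54 (limma, adjusted p = 0.129). H2-Oa, a chain of the H2-DM inhibitor H2-DO, differed by 1.32 ± 0.52 (limma, adjusted p = 0.202), and H2-DMa by 1.19 ± 0.61 (limma, adjusted p = 0.336). H2-DMa was found in 50% to 80% of negative cells. Ctss, the protease that trims the invariant chain, was found in every cell of both classes, with a difference of 0.46 ± 0.45 (limma, adjusted p = 0.671). Ciita was too sparse to be tested. It was listed at 0 in all negative cells and found in 8.70%, 7.69%, 3.45% and 16.1% of positive cells.

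The promoters of class II genes are shown because 2 of them, of H2-Aa and H2-Eb1, belong to genes that chose the cells, and the others to the accessory genes with the smallest p in the list. Each line runs 5′ to 3′ from 100 bases before to 10 bases after the start site (RefSeq, build GRCm38.p6, which is not the build of the expression table), with the Y box core ATTGG in capitals.
H2-Aa: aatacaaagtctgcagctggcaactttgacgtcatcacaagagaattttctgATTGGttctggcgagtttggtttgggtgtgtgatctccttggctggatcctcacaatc
H2-Eb1: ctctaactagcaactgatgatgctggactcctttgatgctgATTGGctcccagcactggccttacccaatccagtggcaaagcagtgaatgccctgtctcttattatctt
H2-DMb1: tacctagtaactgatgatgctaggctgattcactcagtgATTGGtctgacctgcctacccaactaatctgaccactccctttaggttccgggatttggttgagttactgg
H2-Oa: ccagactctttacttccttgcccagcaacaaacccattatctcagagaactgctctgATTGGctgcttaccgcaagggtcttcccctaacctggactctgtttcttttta

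H2-Aa lies on the minus strand at chr17:34287814-34287923, H2-Eb1 on the plus strand at chr17:34305767-34305876, H2-DMb1 on the plus strand at chr17:34153091-34153200 and H2-Oa on the plus strand at chr17:34092279-34092388. ATTGG begins 48, 59, 61 and 43 bases before the start in these 4 promoters. Of 11 class II genes searched, 8 had a promoter in the table, and 5 of those held ATTGG on the gene's own strand between 70 and 31 bases before the start. The same window held it in 5.49% of 27025 genes, in 7.38% of the tested genes with a promoter and in 17.2% (5 of 29) of the promoters found for the 36 genes above. Anywhere in 300 bases and on either strand, ATTGG was in 8 of the 8 class II genes, in 41.1% of all genes, in 42.2% of tested genes and in 24.1% (7 of 29) of the 36 genes' promoters. These are matches of letters in a window, not sites shown to be bound.

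Genes of MHC class I presentation, which shows peptides made inside the cell, gave no call among 22 tested members, which at 0.572% over all genes is near the background. The list's median was 1.00 and fell to 0.35 with genes per cell as a term. By mouse it was 2.11, 0.87, 1.10 and -0.01, with mouse 4 near 0. B2m, the shared light chain, was found in every cell, with a level of 13.82, 12.62, 11.72 and 12.87 in positive cells and 12.55, 12.27, 10.34 and 12.77 in negative cells. Psmb8, a subunit of the immunoproteasome, differed by 1.89 ± 0.63 (limma, adjusted p = 0.127), and Psme1, a proteasome activator, by 1.83 ± 0.60 (limma, adjusted p = 0.122). H2-Q7, which has close copies, differed by 1.84 ± 0.68 (limma, adjusted p = 0.170), with -0.13 in mouse 4.

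The interferon lists gave no call either, which is again near the 0.572% of all genes. Interferon gamma is the main inducer of Ciita in macrophages. Of 28 listed genes that answer to it, 14 were tested, 11 of them above 0 with a median of 0.66, and -0.04 with genes per cell as a term. Gbp9, a GTPase, differed by 0.89 ± 0.37 (limma, adjusted p = 0.221) and Igtp, another, by 0.77 ± 0.38 (limma, adjusted p = 0.317). Of 34 tested genes of the type I interferon response 28 lay above 0, with a median of 0.68, and -0.03 with genes per cell as a term. Irf7, a transcription factor of that response, differed by 3.42, 2.01, 0.62 and -0.42 in mice 1 to 4 (1.41 ± 0.59; limma, adjusted p = 0.228). Its sign was not the same in all mice.

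Of the homeostatic genes that mark resting microglia, 15 of 26 tested members (57.7%) lay above 0, beside 76.0% of all tested genes. None of them passed the test, which is near the 0.572% of all genes. Their median was 0.06 beside 0.28 over all genes, and its sign depended on the scaling. It was -0.58 beside -0.05 after quantile normalization and -0.16 beside 0.31 after rescaling FPKM without Rn45s and small RNA genes. P2ry12, a receptor for nucleotides by which resting microglia sense injury, had a level of 7.90, 7.19, 6.44 and 7.06 in positive cells and 9.49, 7.96, 6.88 and 8.93 in negative cells. Positive cells were lower within each of the 4 mice, and the classes overlapped across mice. The difference was -1.16 ± 0.55 (limma, adjusted p = 0.295) and, with genes per cell as a term, -1.84. Mertk, a receptor for engulfing dying cells, differed by 1.40 ± 0.59 (limma, adjusted p = 0.232), and Slc2a5, a fructose transporter, by -0.89 ± 0.59 (limma, adjusted p = 0.479).

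No gene was called lower, and the smallest adjusted p below 0 was 0.148 in limma. It belonged to Dusp7, a phosphatase of MAP kinases, with -0.86, -1.16, -1.07 and -1.51 in mice 1 to 4. Clec4a3, a C-type lectin receptor, differed by -1.76 ± 0.63 (limma, adjusted p = 0.154). It was found in 21.7% of positive and 70% of negative cells of mouse 1, and in 30.8% and 28.6% in mouse 2, so the mice were not alike. The next by p were Ppp4r2, Rragc, Supt3, Vimp, Vhl and Dok3, with differences of -0.67 to -1.37. All tested genes lower in every mouse numbered 107, or 1.7%.

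Cytokine genes gave no call among 11 tested, which at 0.572% over all genes is near the background. Their median was 0.93, and -0.07 with genes per cell as a term. Ccl12, a chemokine for monocytes, had a level of 4.42, 3.80, 2.52 and 5.35 in positive and 0.94, 3.72, 0.88 and 1.28 in negative cells. In mouse 2 the classes were nearly equal (2.32 ± 0.62; limma, adjusted p = 0.0669). Ccl3, a chemokine of activated microglia, differed by 2.25 ± 0.65 (limma, adjusted p = 0.0880), and Tnf by 0.97 ± 0.29 (limma, adjusted p = 0.103). Costimulation genes, which T cells need beside class II, were tested in 7 of 14 members without a call, again near the background. Their median was 0.57, and 0.16 with genes per cell as a term. Cd72 differed by 1.20 ± 0.38 (limma, adjusted p = 0.110) and Cd48 by 1.51 ± 0.61 (limma, adjusted p = 0.212).

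Lysosomal genes had a median of 0.70 over 20 tested members, beside 0.28 over all tested genes. With genes per cell as a term it was 0.34 beside 0.02. They gave no call, near the 0.572% of all genes that passed, with Lamp2, a lysosomal membrane protein, at 1.96 ± 0.61 (limma, adjusted p = 0.109). The complement and Fc receptor list had a median of 0.59 over 15, and 0.20 with genes per cell as a term. It gave no call, again near that share, with Fcgr2b, an inhibitory receptor for antibodies, at 1.73 ± 0.64 (limma, adjusted p = 0.170). The dissociation and immediate early list, which reads the handling of cells, had a median of 0.49 over 17 and -0.28 with genes per cell as a term, with Ier2 at 1.66 ± 0.57 (limma, adjusted p = 0.137). Of 24 genes of DNA replication and mitosis 3 were tested, with Mcm3, a subunit of the replicative helicase, at 0.61 ± 0.29 (limma, adjusted p = 0.291).

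**Figure D4:**
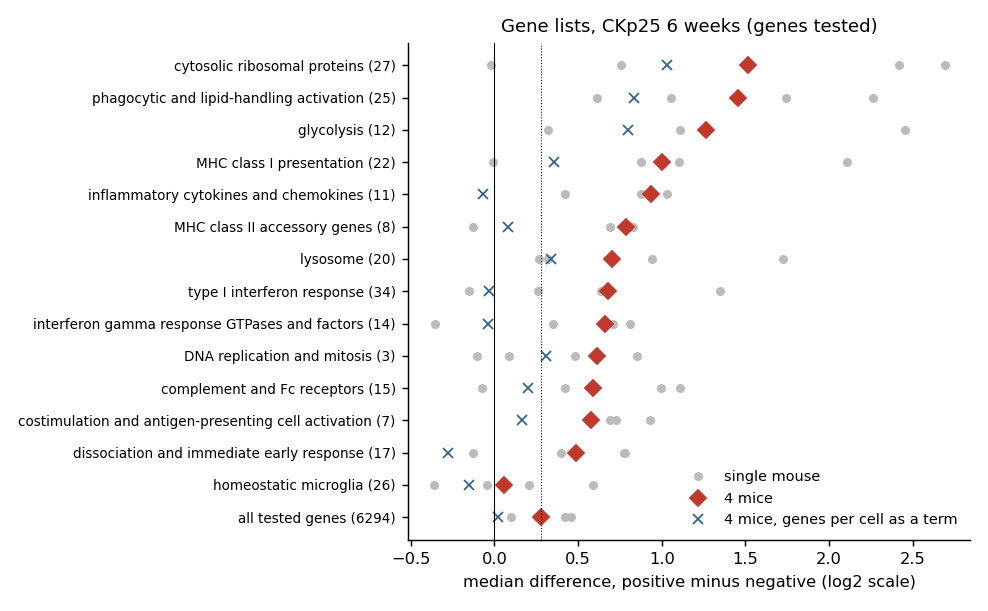
Median difference of positive minus negative cells on the log2 scale (x axis) over the tested members of 14 gene lists and over all tested genes (y axis, number tested in brackets), with diamonds for the 4 mice together, gray points for single mice and crosses for the fit with genes per cell as a term. The dotted line is the median of all tested genes, 0.28, and the phagocytic list lay at 1.46 and at 0.83 with that term.

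Intermediate cells had a median of 1675, 2484, 1856 and 2185 genes per cell in mice 1 to 4, which lay between the classes in mice 1 to 3 and below both in mouse 4. Each of the 36 genes had a mean over mice above that of negative and below that of positive cells, as 34.7% of all tested genes did. The median of intermediate minus negative was 1.06 over the 36 genes and 0.08 over all, but the 36 were chosen for the gap between positive and negative cells, so this is a description without a test. Cst7 had a level of 3.39, 6.05, 1.82 and 4.08 in the intermediate cells of mice 1 to 4. In mouse 4 that lay below the negative cells.

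The same classes were compared in 3 CKp25 mice at 2 weeks, which share no mouse with 6 weeks. They held 22, 7 and 25 positive and 34, 60 and 19 negative cells. The genes tested there were those of the 6294 tested at 6 weeks that also passed the filter at 2 weeks. The 6-week filter thus carried over, and the balance of calls and the overlap cannot be read apart from it. Of 5515 genes tested there, 6 were higher in positive cells and 0 were lower (limma, adjusted p under 0.05), or 0.109% and 0.0%. At an unadjusted p under 0.05 these were 466 and 56. In all 3 mice 7.4% of genes were lower. The 6 genes were Cd52, Cst7, Apoe, Atox1, Spp1 and Il4i1, and 4 of them were among the 36 of 6 weeks. That is 66.7% of the 2-week and 11.11% of the 6-week genes. The gap in genes per cell was smaller at 2 weeks, with 2687.5 and 2372 genes in positive and negative cells of mouse 1, 2740 and 2825.5 in mouse 2, and 2944 and 2645 in mouse 3. With genes per cell as a term, or with matched cells, 0 genes passed at 2 weeks.

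Cd52 had a level of 8.73, 9.23 and 9.45 in positive and 6.11, 5.62 and 6.54 in negative cells of the 3 mice at 2 weeks, a difference of 3.05 ± 0.36 (limma, adjusted p = 0.00267). Cst7 was at 8.26, 8.73 and 8.68 in positive and 6.61, 4.05 and 4.67 in negative cells (3.45 ± 0.50; limma, adjusted p = 0.00905). Neither gene's classes overlapped. Apoe was at 9.24, 11.29 and 11.27 in positive and 5.75, 7.17 and 9.94 in negative cells (2.98 ± 0.42; limma, adjusted p = 0.00905). Spp1 was at 4.51, 4.21 and 4.45 in positive and 1.99, 1.13 and 0.95 in negative cells (3.03 ± 0.47; limma, adjusted p = 0.0126).

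Atox1, a copper chaperone, was higher by 2.96 ± 0.44 at 2 weeks (limma, adjusted p = 0.00905) and differed by 2.07 ± 0.55 at 6 weeks (limma, adjusted p = 0.0669). Il4i1, a secreted amino acid oxidase, was higher by 2.31 ± 0.41 at 2 weeks (limma, adjusted p = 0.0494) and differed by 0.76 ± 0.37 at 6 weeks (limma, adjusted p = 0.313). At 6 weeks Il4i1 was found in 35.7% of negative and 23.1% of positive cells of mouse 2, while it was listed at 0 in the negative cells of the other 3 mice.

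Of the 36 genes of 6 weeks, 33 were tested at 2 weeks, where 30 lay above 0, as did 65.8% of all genes. In all 3 mice 16 were higher, against 23.6% of all genes. Their median difference at 2 weeks was 0.79, beside 0.18 over all genes. Ccl6 differed by 1.35 ± 0.46 at 2 weeks (limma, adjusted p = 0.443), and the ribosomal list had a median of 0.68 without a call. The phagocytic list had a median of 1.35, with 23 of 23 tested members above 0. Of these, 4 were past the threshold, while 0.109% of all genes tested at 2 weeks passed.

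No difference between the weeks was shown. Of 5515 genes, 0 differed between 6 and 2 weeks in the class difference (limma, smallest adjusted p = 0.896; 299 genes at an unadjusted p under 0.05), or 0.0%. For Cst7 the difference between weeks was 1.22 ± 0.96, for Apoe -0.45 ± 0.76, for Cd52 0.03 ± 0.81 and for Spp1 -1.02 ± 0.69. Ccl12 gave 2.87 ± 0.87 and Il4i1 -1.55 ± 0.59 (limma, adjusted p = 0.896 for both). The standard errors show how wide a difference these 7 mice leave possible.

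**Figure D5:**
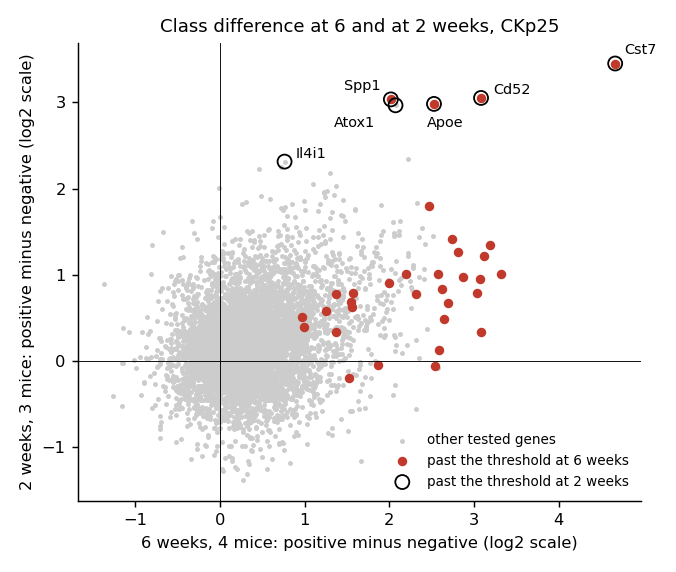
Difference of positive minus negative cells on the log2 scale at 6 weeks (x axis, 4 CKp25 mice) and at 2 weeks (y axis, 3 CKp25 mice), with 1 point per gene. Cst7, Cd52, Apoe and Spp1 were past the threshold at both weeks, and 30 of the 33 genes of 6 weeks tested at 2 weeks lay above 0 there.

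CK mice had few Cd74-positive cells, 13 at 6 weeks in all, and only mice 1 and 3 had at least 5, with 5 and 7. Apoe was at 9.14 and 10.21 in their positive and 3.09 and 5.90 in their negative cells. Cst7 was at 0 and 3.47 in positive and 0.26 and 0 in negative cells, and Cd52 at 0 and 3.63 in positive and 1.24 and 1.15 in negative cells. Spp1 was at 5.44 and 0.58 in positive and 0.23 and 0.06 in negative cells. Apoe and Spp1 were thus higher in the positive cells of both mice, and Cst7 and Cd52 in those of mouse 3 alone. At least 2 markers of border-associated macrophages were found in 4 of the 13 positive CK cells, or 30.8%, and in 9.76% of 123 negative ones, against 11.2% of the positive cells of CKp25 mice at 6 weeks. No test was made with so few cells and mice.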

How the data were processed

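Single hippocampal cells were measured by Smart-seq2, and the authors deposited 1 table of FPKM for 23951 genes in 2208 wells, made with Cufflinks 2.2 on mm9, per the submitters' processing notes. The gene annotation, filters and strand setting are not given in the sources used here. FPKM keep no counts, so no counting interval could be given. Groups came from the labels, 0 columns lacked a sample, and 0 of the kept cells of the 4 mice had identical values. Doublets were not called. Wells with under 1000 detected genes, and the first well of each mouse, were not used.

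The mean of log2(FPKM + 1) over the cells of each class and mouse was fitted with limma 3.58.1 in R 4.3.3 (trend and robust options, mouse as a block, 2-sided, Benjamini-Hochberg over all tested genes, threshold 0.05). The pseudocount of 1 understates differences of low genes. Values after ± are standard errors unless SD is written. Genes entered at FPKM of 1 or more in 10% of positive and negative cells of 3 mice, without the 4 genes of the rule. At 2 weeks a gene had to pass this filter at both weeks. Both classes of a mouse come from 1 animal, and their deviations from the class means correlated at 0.10 to 0.33 over genes. The cells, gene lists and comparisons were chosen with earlier results of these data known. Lists were described by counts and medians, without a test. Named genes were the 15 largest past the threshold with 1 sign in 4 mice, the 8 of smallest p below 0, list members past the threshold and up to 5 others by p, and markers. Other genes past the threshold were named after their values were seen, and a few genes are not reported here. Python 3.11.15 was used for the tables, and the fit was tested on simulated data. Promoters came from RefSeq (GRCm38.p6).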

Additional observations from a re-analysis of the deposited data

Results flagged for a closer look

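In 4 of the 36 genes past the threshold at 6 weeks, and in 0 of the 2 measures of cells examined the same way, the difference of 1 mouse lay far from the other 3. Chance flags about 1 in 20 such groups of 4, and 38 were examined. Vamp8 differed by 4.71 in mouse 1 and by 1.90 to 2.02 in the others. Rps26 differed by 5.41 in mouse 1. Akr1a1 differed by 1.13 in mouse 2, below the other mice. Dnajb14, a chaperone cofactor, differed by 1.99 in mouse 3 and by 1.11 to 1.25 in the others. Mouse 1 also had a wide gap in genes per cell between the classes, and its part in these values was not tested.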

How the results depend on the processing

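At 6 weeks the number of genes higher in positive cells was 36, and 0 were lower in every alternative. It was 13 with a pseudocount of 0.1, 7 with the log2 of mean FPKM, 10 after quantile normalization, 0 without a filter on low values and 0 without limma's trend and robust options. It was 55 with profiles weighted by cells, 2 with genes per cell as a term, 2 in cells with 1500 to 3500 genes (2 and 4 negative cells in mice 1 and 3) and 64 with the first wells. It was 18 without 7 wells of mouse 2 whose labels carry a suffix and whose positions are those that mouse 3 lacks, so that they may come from that animal, 1 without cells with 2 markers of other types, 59 at Cd74 of 100 or more with 2 H2 genes and 73 against every other cell. Leaving out 1 mouse at a time gave 2 to 96. Without the mouse as a block, the unpaired fit gave 2. Matched cells (2) and the narrower marker list (19) were chosen after seeing the data. The median over all genes moved from 0.28 to -0.05 after quantile normalization, and relative to it Cst7 stayed apart at 4.20. The difference in genes per cell was 360 to 626 on leaving out 1 mouse, and the mean share of positive cells at 6 weeks was 40.4% at Cd74 of 100 with 2 H2 genes.

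All alternatives at 2 weeks were applied after seeing the data. The count of 6 became 2 at Cd74 of 100, 0 with genes per cell as a term, 0 with matched cells, 0 with log2 of mean FPKM, 2 with a filter at 25% of cells, 3 in cells with 1500 to 3500 genes, 10 without cells with markers of other types, 3 with the narrower list, 10 without a filter and 3 without trend and robust options, and 1 to 15 on leaving out 1 mouse.

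None of the 36 genes changed sign at 6 weeks in the 24 alternatives, of which 12 genes could be computed in 23. The alternatives reuse the mice in which the 36 were chosen, so a kept sign is no independent support. Cst7 kept its call in 21 of 24 alternatives and Apoe in 16. Genes below the threshold that changed sign did so as follows. With genes per cell as a term, Ifi30 gave -0.044, Icosl -0.013, Cxcl16 -0.071 and Irgm1 -0.11. In cells with 1500 to 3500 genes, Ifi30 gave -0.32, Icosl -0.055, Irgm1 -0.40 and Ltc4s -1.21. Without cells with markers of other types, Irgm1 gave -0.35, C3 -0.16, Tyms 0.32 and Fos -0.094. With matched cells, Icosl gave -0.057 and Il4i1 -0.12. Ctss gave -0.17 after quantile normalization and Relb gave -0.19 without mouse 4 and up to 0.94 without 1 of the others. The causes were not tested. Depth is unknown, so a gene listed at 0 may be missed and not absent.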
